A study of Mus musculus with 120 samples.

Results

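The 8 genes described here, Mbp, Pmp2, Pmp22, Prx, Sox10, S100b, Cdh19 and Ncmap, are genes of Schwann cells and of the myelin that these cells make. They were taken by symbol from the deposited gene tables, where each of the 8 symbols had 1 row among the 55487 genes that both tables shared. The samples were 120 immunological niches (INs), porous scaffolds implanted under the skin of female mice, explanted whole and profiled by total RNA sequencing after ribosomal depletion. The mice were NOD/ShiLtJ, which can develop autoimmune diabetes, or NOR/LtJ, a related strain that served as nondiabetic control, and the NOD mice were divided into progressors, which became hyperglycemic, and nonprogressors, which did not.

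There were 23 samples from 5 NOR mice taken every 4 weeks from 6 to 22 weeks of age. The 39 nonprogressor samples comprised 33 from 11 mice at 6 to 22 weeks of age. The other 6 were dated only by 31, 38 or 108 days after implantation. Their labels also carry mouse numbers, which were not taken here to link them to those mice. The 58 progressor samples came from 10 mice at 6 weeks of age and then at −7, −5, −3 and −1 weeks relative to onset and at onset. Batches are named here by the deposited count table that held a sample. Batch 1 held 74 samples, including all NOR samples. Batch 2 held 46, including every −7 week sample, so levels are given by batch. Each mouse received 4 scaffolds at 4 weeks of age, and from 6 weeks 1 was taken and replaced at the same site each week in rotation, so age, time of engraftment and repeated surgery cannot be told apart in any comparison with 6 weeks.

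Schwann cells are the glia of peripheral nerve. The myelinating ones wrap a single large axon in a sheath of compact myelin, held together by adhesion and membrane proteins, and leave noncompact channels at its edges, while nonmyelinating Schwann cells hold bundles of thin axons such as those that reach the skin. After a nerve is cut, Schwann cells lower their myelin genes and take on a repair state, and they raise them again when axons regrow.

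Of the structural genes, Prx encodes periaxin, which links the Schwann cell membrane to its cytoskeleton outside the sheath, Ncmap a protein of noncompact myelin, Pmp2 the fatty acid binding protein P2, and Mbp the basic protein that seals compact myelin. Pmp22 encodes a tetraspan protein of compact myelin that fibroblasts and other cells also make. The same Mbp gene gives rise to golli transcripts that are made in immune cells, which the gene-level counts do not separate. Sox10 encodes a transcription factor that the Schwann lineage shares with melanocytes and with some glandular epithelia, S100b a calcium-binding protein also made by adipocytes, and Cdh19 a cadherin of Schwann cells and their precursors.

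On GRCm38, all 8 were protein-coding genes on 8 chromosomes. Prx (ENSMUSG00000053198) lay on chromosome 7 at 27499324 to 27520214 and Ncmap (ENSMUSG00000043924) on chromosome 4 at 135369576 to 135398227. Pmp2 (ENSMUSG00000052468) lay on chromosome 3 at 10179851 to 10183929 and Cdh19 (ENSMUSG00000047216) on chromosome 1 at 110888326 to 110977584. Sox10 (ENSMUSG00000033006, chromosome 15), S100b (ENSMUSG00000033208, chromosome 10), Pmp22 (ENSMUSG00000018217, chromosome 11) and Mbp (ENSMUSG00000041607) completed the set. The deposited values are estimated counts for whole genes, so isoforms are not told apart.

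The RefSeq promoter table for GRCm38.p6 held entries for 4 of the 8 genes, Prx, Ncmap, Pmp22 and S100b. The windows of Prx and Ncmap are printed because these 2 genes varied most closely together of all pairs among the 8 (below, r = 0.876). Each is the 250 bases upstream of an annotated start, read 5′ to 3′ on the gene's strand, and capitals mark CCAAT on either strand. The Prx window is chr7:27499074-27499323 (plus strand), and the Ncmap windows are chr4:135385673-135385922 and chr4:135398228-135398477 (both minus strand). None of the 3 overlapped an annotated exon.
Prx: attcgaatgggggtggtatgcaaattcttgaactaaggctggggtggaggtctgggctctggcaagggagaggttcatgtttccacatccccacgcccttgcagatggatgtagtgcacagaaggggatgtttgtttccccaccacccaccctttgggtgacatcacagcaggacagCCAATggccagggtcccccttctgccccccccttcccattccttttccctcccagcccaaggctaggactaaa
Ncmap start 1: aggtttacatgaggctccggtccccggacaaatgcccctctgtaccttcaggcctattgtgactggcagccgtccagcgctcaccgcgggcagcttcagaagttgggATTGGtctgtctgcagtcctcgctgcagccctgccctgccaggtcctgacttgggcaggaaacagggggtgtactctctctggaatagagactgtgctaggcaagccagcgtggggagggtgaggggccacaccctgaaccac
Ncmap start 2: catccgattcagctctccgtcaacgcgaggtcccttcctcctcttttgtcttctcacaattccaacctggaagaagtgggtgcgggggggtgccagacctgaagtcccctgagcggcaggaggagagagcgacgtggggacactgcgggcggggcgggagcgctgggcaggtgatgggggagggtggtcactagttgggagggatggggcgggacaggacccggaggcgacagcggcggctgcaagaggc
CCAAT was found once in the Prx window and once in the first Ncmap window, and 33.8% of 32851 mouse promoter windows of this length held it on either strand. Of the other motifs searched on both strands, ACAAAG was in 16.5% of all windows, ACAATG in 10.7%, GTGGGCG in 7.02% and TATAAA in 12.4%. None of these 4 strings was in any of the 8 windows of the 4 matched genes.

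Levels are given as CPM, counts scaled to a common library size by the TMM method, which makes samples comparable within a gene. Compared between genes per kilobase of exon, Pmp22 was highest, with a median of 61.0 CPM per kb in batch 1 and 91.2 in batch 2, and Mbp followed at 10.4 and 8.66. Prx came next in both batches, at 1.97 in batch 1, before Sox10 (1.51 and 0.858) and S100b (0.809 and 1.03), which exchanged places between batches. Ncmap (0.415 and 0.300), Pmp2 (0.223 and 0.188) and Cdh19 (0.202 and 0.228) were lowest, and of these Pmp2 and Cdh19 also exchanged places. The sample ranges of Pmp22 and Mbp did not overlap in either batch, those of Mbp and Prx overlapped in batch 1 only, and those of all later neighbours in the order overlapped in both.

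The low genes rested on few counts. Pmp2 had a median of 10 counts per sample (0 to 219), Ncmap 27.5 (0 to 135), Cdh19 29 (0 to 197) and S100b 41.5 (0 to 110), against 5085 for Pmp22. Library totals ran from 4722396 to 56185434 in batch 1 and from 29029239 to 43880986 in batch 2. The NOR library of mouse 5 at 18 weeks stood apart: 85.7% of its counts fell on 1 gene, CT010467.1, against at most 12.6% elsewhere, which left 1233373 counts for all other genes. In it Prx, Pmp2, Sox10, S100b and Ncmap had 0 counts, a result that allows up to 3.03 CPM and so says little about them, and its Cdh19 value rested on 3 counts. Outside that library Pmp2 had 0 counts in 7 samples, each of which allows at most 0.0718 to 0.152 CPM, Cdh19 in 3 and Ncmap in 2. These limits cover counting error only.

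The samples can also be checked for the cells they held. Of 10 axon and neuron genes, the neurofilament genes Nefm and Nefl and the synaptic gene Snap25 had medians of 0.0381, 0.0649 and 0.0349 CPM over the 120 samples (the 3 were chosen after their values were seen). Uchl1, Stmn2 and Tubb3 of the same list had medians of 2.04, 1.69 and 1.09 CPM, above those of Cdh19, Ncmap and Pmp2, so the list was not absent from the scaffolds.

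Pmp2 was the member whose level was most clearly highest in the scaffold taken at 6 weeks. In NOR mice 1, 2, 4 and 5 it was 1.19, 2.34, 2.43 and 0.950 CPM at 6 weeks, and in the 19 later NOR samples it ranged from 0 to 0.797 with a median of 0.349. The 2 sets did not overlap, and the ratio of medians was 5.04. How many of all genes separated in this way was not counted. Nonprogressors of batch 1 had 0.430, 2.87, 0.973 and 1.66 CPM at 6 weeks against 0 to 1.16 (median 0.272) in 22 later samples, the 6 labelled by days included.

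Nonprogressors of batch 2 ranged from 0.338 to 5.98 CPM of Pmp2 at 6 weeks (median 1.47, n = 7) and from 0.0924 to 0.527 at 14 weeks (median 0.178, n = 6), with 2 of the later samples above the lowest early one. Progressors of batch 1 had 0.245, 2.63, 0.802, 0.808 and 0.444 CPM at 6 weeks, against 0 to 1.24 (median 0.161) in 20 later samples. Progressors of batch 2 had 2.29, 0.255, 2.46, 0.912 and 0.453 CPM, against 0 to 1.03 (median 0.218) in 28 later samples. In this set, for every gene, 4 of the later samples were −7 week samples of mice 1 to 4, whose 6-week samples were in batch 1, and the highest later Pmp2 value was from mouse 3. The 6-week medians were thus higher in all 5 sets of mice and batch, by 4.18 to 8.29 times, while ranges overlapped in all but NOR.

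Taken within each mouse, the median Pmp2 level of the later scaffolds was below that of the 6-week scaffold in 23 of 24 mice. Progressor mouse 1 was the exception, at 0.245 CPM at 6 weeks and 0.418, 0.125, 0.333 and 1.24 CPM at −5, −3, −1 weeks and onset in the same batch. The corresponding count was 22 of 24 mice for Cdh19, 21 for Prx, 20 for Ncmap, 19 for S100b, 16 for Mbp, 16 for Pmp22 and 15 for Sox10. NOR mouse 3 had no 6-week sample and nonprogressor mouse 11 no later one, so neither entered these counts.

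**Figure D1:**
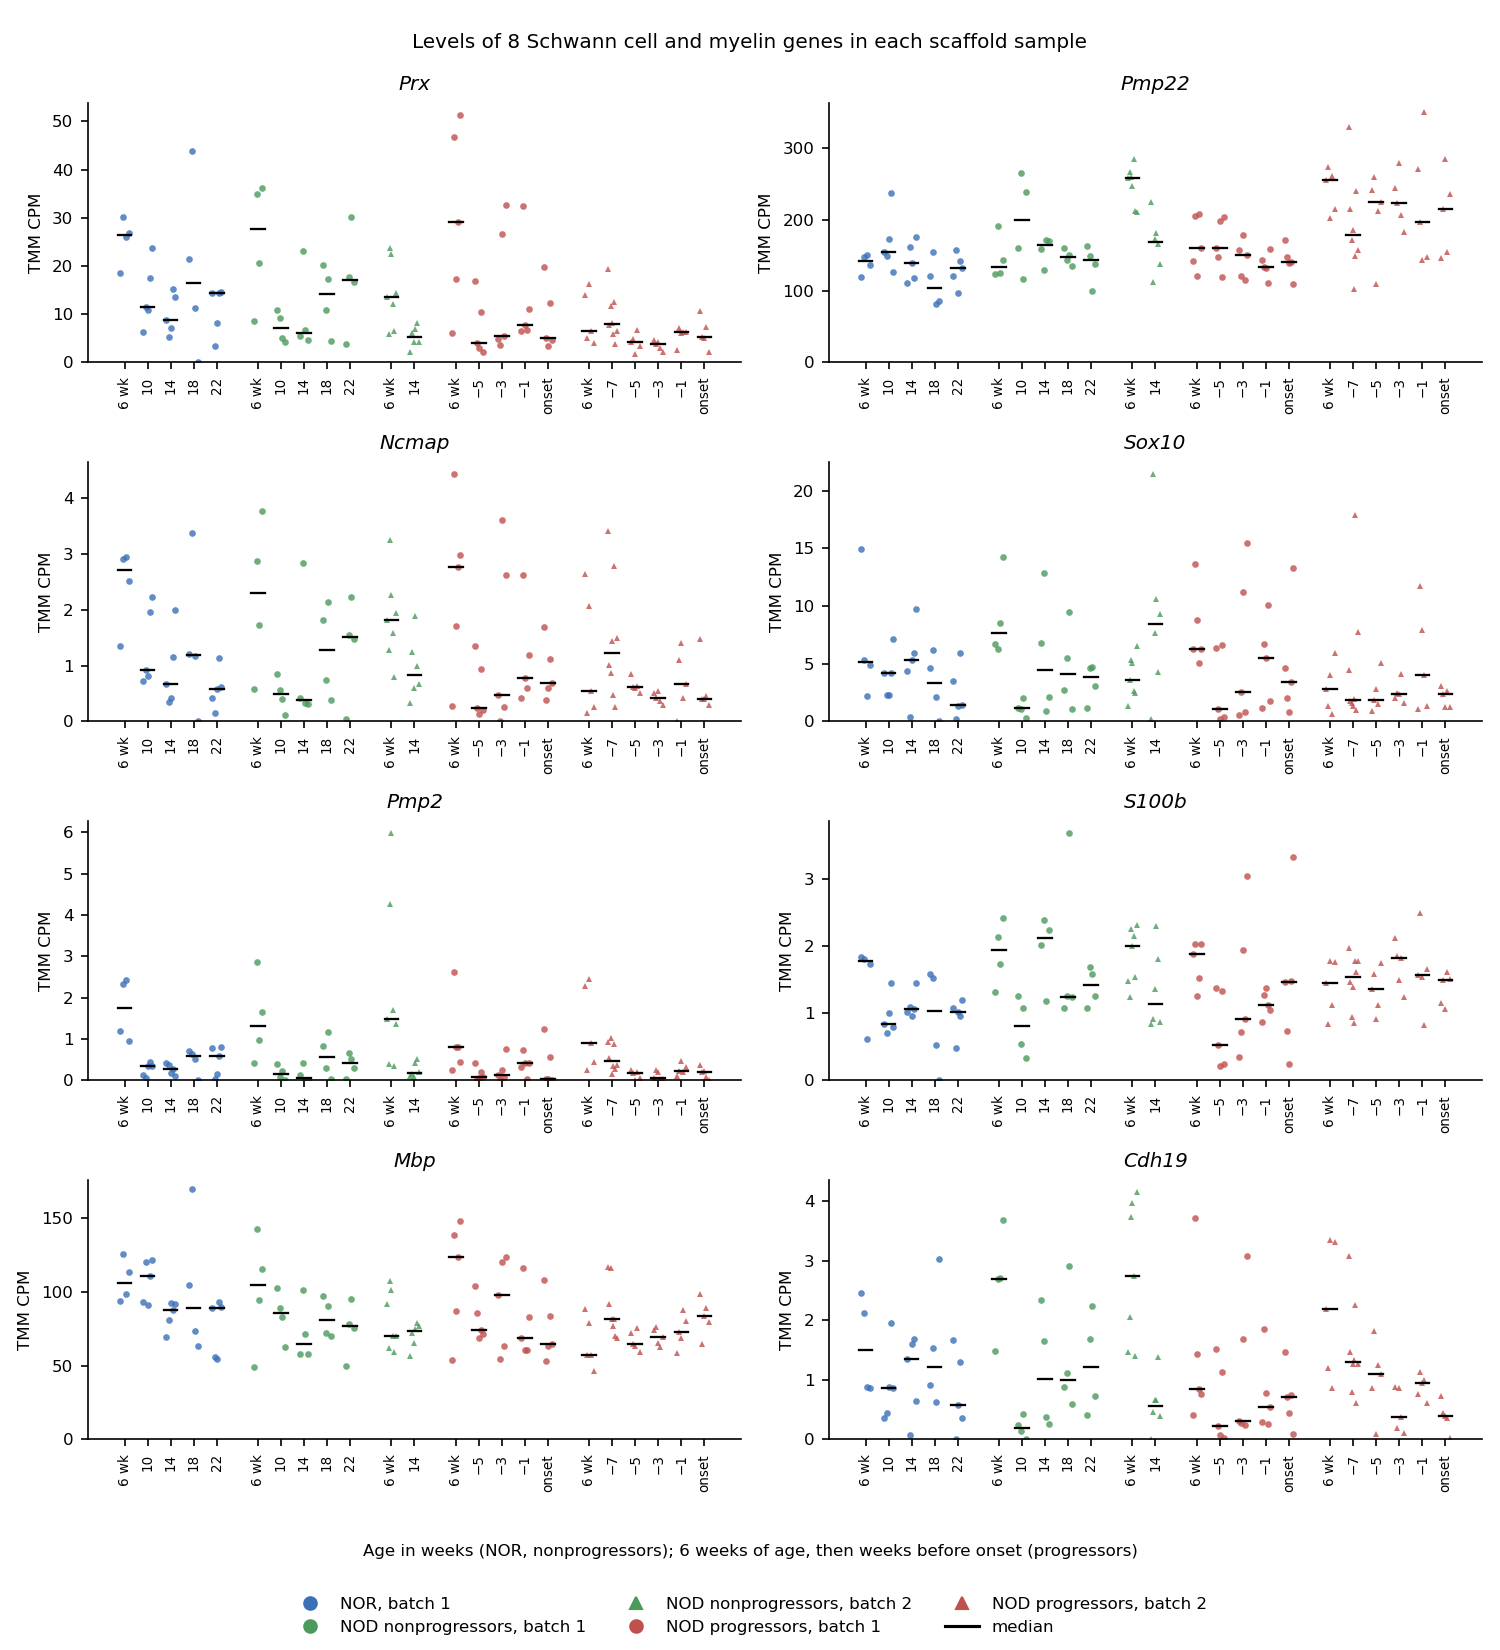
Level of each of the 8 genes in TMM-scaled CPM (y axis, linear, from 0) in each scaffold sample (points), by age for NOR and nonprogressors and by time to onset for progressors (x axis). Circles are batch 1, triangles batch 2, and the horizontal line is the median of a group. The 6 nonprogressor samples labelled only by days after implantation are not drawn. Pmp2 is highest at 6 weeks in each of the 5 sets, with medians 4.18 to 8.29 times those of all later samples, whereas Pmp22 has ratios between 0.903 and 1.53.

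Prx showed the same order with more overlap. In NOR it was 18.5, 30.2, 26.0 and 26.9 CPM at 6 weeks and 0 to 43.8 later (median 11.5), where 3 of 19 later samples lay above the lowest 6-week value and mouse 3 at 18 weeks had the highest. Nonprogressors of batch 1 had 8.66, 34.9, 20.6 and 36.3 CPM at 6 weeks against a later median of 9.77. Mouse 1 of these was low at 6 weeks for Prx, Pmp2, Ncmap and Mbp alike.

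Progressors of batch 1 had 6.06, 46.9, 17.3, 29.0 and 51.4 CPM of Prx at 6 weeks against a later median of 6.64, a ratio of 4.37. In batch 2 progressors the values were 13.9, 4.95, 16.3, 6.59 and 4.05 CPM against a later median of 5.52, a ratio of 1.19, with mice 6 and 8 as the only high ones at 6 weeks. Mouse 8 and mouse 6 were likewise the 2 with Pmp2 above 2 CPM and Ncmap above 2 CPM at 6 weeks in this set.

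Cdh19 differed most clearly with time in batch 2. Nonprogressors there had 1.39 to 4.15 CPM at 6 weeks (median 2.74, n = 7) and 0 to 1.39 at 14 weeks (median 0.565, n = 6). The 6-week and 14-week samples did not overlap, although the lowest early value, 1.394, and the highest later one, 1.388, were all but equal. Progressors of batch 2 had 2.19, 1.20, 3.34, 0.865 and 3.32 CPM at 6 weeks and 0.726, 0.442, 0.392, 0.368 and 0.0273 at onset, without overlap. Here too the share of all genes without overlap was not counted for either set. Over all 28 later samples of that set the range was 0.0273 to 3.08 CPM, and 14 lay above the lowest 6-week value.

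Ncmap followed Prx. Its 6-week medians were 2.71 CPM in NOR, 2.30 and 1.81 in nonprogressors of batches 1 and 2, and 2.76 in progressors of batch 1, or 2.17 to 4.26 times the later medians. In progressors of batch 2 the 6-week median was 0.538 and the later one 0.570 CPM, with mice 6 and 8 at 2.65 and 2.06 and the other 3 between 0.153 and 0.538. The ranges overlapped in all 5 sets.

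The remaining 4 genes varied less with time or in no single direction. Mbp ratios of 6-week to later medians ran from 0.766 in progressors of batch 2 to 1.70 in those of batch 1, S100b ratios from 0.950 to 1.75 and Pmp22 ratios from 0.903 to 1.53. Sox10 went opposite ways in the 2 sets of nonprogressors. In batch 1 it was 6.71, 6.29, 8.55 and 14.3 CPM at 6 weeks against a later median of 3.99, and in batch 2 it was 1.31 to 6.53 CPM at 6 weeks (median 3.62) against 0.205 to 21.4 at 14 weeks (median 8.45).

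These differences were tested with edgeR's quasi-likelihood test, with p-values adjusted by Benjamini-Hochberg over all genes tested and called under 0.05. In batch 2 nonprogressors, 4 of the 8 genes were lower at 14 than at 6 weeks, where 17.3% of 19665 genes tested were called lower. Pmp2 fell by 3.15 on the log2 scale (SE 0.71, adjusted p = 0.00442), Cdh19 by 2.22 (SE 0.54, adjusted p = 0.00633) and Prx by 1.41 (SE 0.37, adjusted p = 0.0102). Pmp22 fell by 0.59 (SE 0.13, adjusted p = 0.00389). All 6 mice with both times had lower Pmp22 at 14 weeks, and the 6-week range of 211 to 285 CPM met the 14-week range of 112 to 225 in 1 later sample.

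The other 4 genes did not pass in that comparison. Ncmap had a log2 difference of −0.94 (SE 0.38, adjusted p = 0.0699), which passed without mouse 8 (−1.20, adjusted p = 0.041) and in DESeq2 (adjusted p = 0.0368). Sox10 had a difference of 1.21 (SE 0.61, adjusted p = 0.14) that passed without mouse 5 (1.32, adjusted p = 0.00993), whose 14-week sample was the lowest of the set at 0.205 CPM. S100b (−0.46) and Mbp (−0.18) had adjusted p of 0.191 and 0.359. The median log2 difference was −0.77 over the 8 genes and 0.01 over all genes tested.

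In progressors, onset was compared with 6 weeks over both batches with a batch term. Pmp2 (−2.12, SE 0.59, adjusted p = 0.00343), Cdh19 (−1.77, SE 0.55, adjusted p = 0.00832) and Prx (−1.16, SE 0.42, adjusted p = 0.0238) were lower at onset, 3 of 8 genes where 19.9% of 21279 genes were called lower. Within batch 2 Cdh19 (−2.48) and Pmp2 (−2.79) passed, where 17.2% of genes were called lower, and within batch 1 none did, where 8.25% were, with Cdh19 at −1.03, Pmp2 at −1.36 and Prx at −1.73 (adjusted p = 0.417, 0.302 and 0.101). The Prx call was lost without progressor mouse 2, 5 or 8 (adjusted p = 0.069, 0.0792 and 0.0667), and Ncmap (−1.20, adjusted p = 0.0853) passed without progressor mouse 1 (−1.46, adjusted p = 0.0464).

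A contrast of all samples from −5 weeks to onset with those at 6 weeks, chosen after the time course had been seen, used more samples. In it Pmp2 (−2.44, SE 0.41, adjusted p = 3.32e-06), Prx (−1.24, SE 0.30, adjusted p = 0.000941), Cdh19 (−1.33, SE 0.39, adjusted p = 0.0047) and Ncmap (−1.14, SE 0.41, adjusted p = 0.0236) were lower, again against 19.9% of all genes. Pmp2 and Prx were called in each batch alone, at −1.84 and −1.51 in batch 1, where 13.4% of genes were called lower, and at −2.93 and −0.97 in batch 2, where 16.4% were. Cdh19 was called in batch 2 (−1.76, adjusted p = 0.00151) and not in batch 1 (−0.91, adjusted p = 0.304). With mouse as a replicate block Ncmap was no longer called (adjusted p = 0.0583).

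The same kind of contrast in nonprogressors of batch 1, the mean of 10 to 22 weeks against 6 weeks, called Pmp2 (−2.45, SE 0.66, adjusted p = 0.0226) and Cdh19 (−1.76, SE 0.51, adjusted p = 0.0316). That was 2 of 8 genes where 6.61% of genes were called lower, and with mouse as a block Sox10 joined them (−1.80, adjusted p = 0.0421). Prx (−1.15), Ncmap (−1.27) and Sox10 (−1.52) had adjusted p of 0.101, 0.188 and 0.0578 without the block.

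In NOR none of the 8 genes was called in that contrast by edgeR, 3 had an unadjusted p under 0.05, and 0.0357% of 19628 genes were called at all. Pmp2 had the largest difference, −2.18 (SE 0.43, unadjusted p = 4.59e-05, adjusted p = 0.0621), with a higher value at 6 weeks in every sample. Leaving out the NOR library of mouse 5 at 18 weeks gave an adjusted p of 0.0605, and the block gave 0.207. Ncmap (−1.19) and Prx (−0.92) had adjusted p of 0.582 and 0.698.

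**Figure D2:**
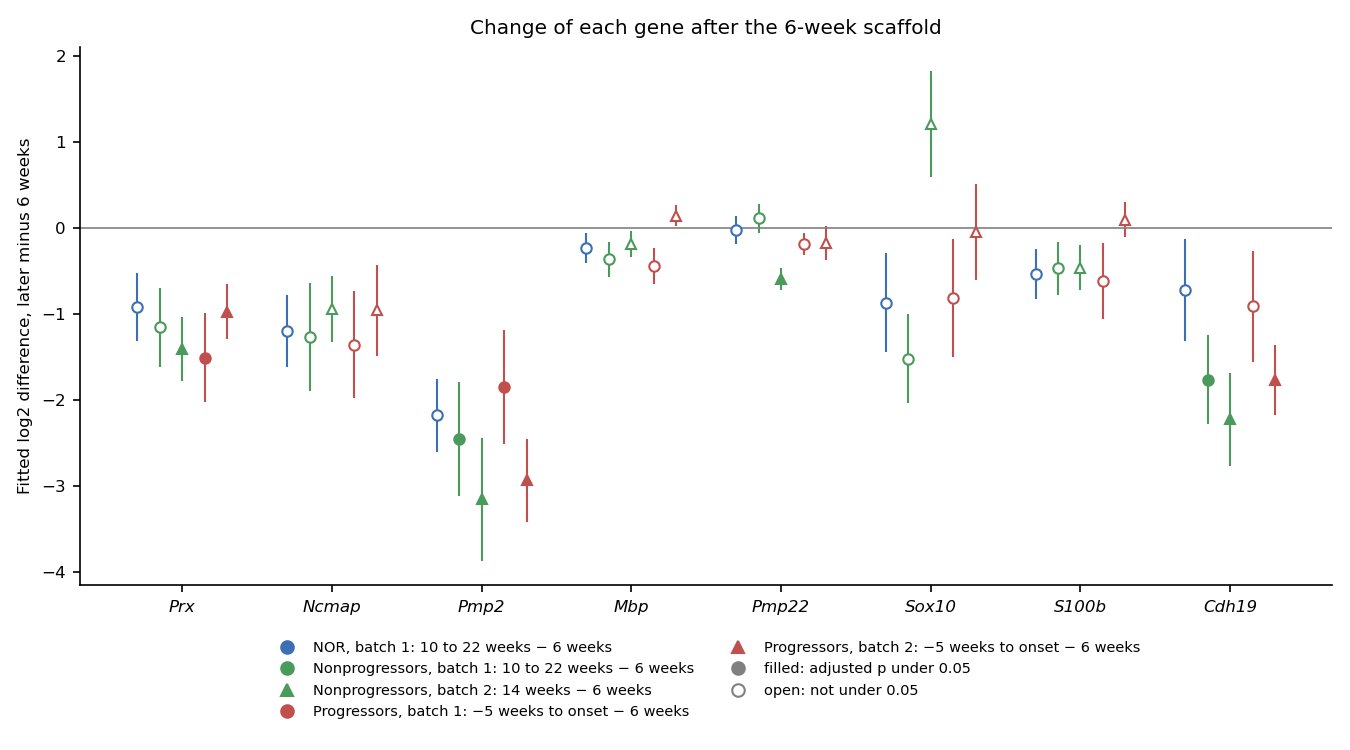
Fitted log2 difference of later samples from 6-week samples (y axis) for each of the 8 genes (x axis) in 5 sets of mice and batch (colours and marker shapes), with bars of 1 standard error. Filled markers have an adjusted p under 0.05 and open ones do not. Pmp2 lies between −3.15 and −1.84 in all 5 sets, while Pmp22 and Mbp stay within 0.6 of 0 and Sox10 ranges from −1.52 to 1.21.

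The difference between strains in the later-minus-6-week contrast was tested directly in batch 1 nonprogressors and NOR. It was called for none of the 8 genes by edgeR, with none under an unadjusted p of 0.05, but 0% of 20647 genes were called at all (1250 at an unadjusted p under 0.05), so the count says nothing particular to the 8. Prx differed by −0.22, Ncmap by −0.06 and Cdh19 by −1.04 on the log2 scale, nonprogressors minus NOR. These values do not show that the strains changed alike.

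As a slope over 6 to 22 weeks, age gave no call among the 8 genes. In NOR 3 had an unadjusted p under 0.05, Ncmap at −0.36 per 4 weeks (adjusted p = 0.141), Pmp2 at −0.35 (adjusted p = 0.258) and Mbp at −0.10 (adjusted p = 0.282), against 3.51% of all genes called. In nonprogressors none had, against 21.1% of all genes. DESeq2 called none in either strain. The interaction of age with strain called 1.72% of genes and none of the 8, with none under an unadjusted p of 0.05.

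The medians did not follow a straight line. Prx in nonprogressors of batch 1 had medians of 27.7 CPM at 6 weeks, 7.10 at 10, 6.08 at 14, 14.1 at 18 and 17.2 at 22 weeks. Ncmap went from 2.30 to 0.482, 0.379, 1.28 and 1.51 CPM, and Cdh19 from 2.70 to 0.189, 1.02, 0.992 and 1.21. For Prx and Ncmap the lowest medians were those at 10 and 14 weeks, with 18 and 22 weeks in between, and for Cdh19 the lowest was that at 10 weeks.

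Over 10 to 22 weeks alone the nonprogressor slopes were 0.67 for Cdh19, 0.44 for Ncmap, 0.41 for Prx and 0.33 for Sox10 per 4 weeks (adjusted p = 0.214, 0.372, 0.198 and 0.593). None was called. In NOR over the same ages Pmp2 had a slope of 0.34 (adjusted p = 0.294) and Prx one of 0.004. The NOR medians of Pmp2 were 0.347 CPM at 10 weeks, 0.264 at 14, 0.580 at 18 and 0.581 at 22 weeks.

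The approach to onset was examined from −5 weeks to onset, an interval over which each mouse also aged, so that progression and age cannot be told apart. None of the 8 genes was called by edgeR, none had an unadjusted p under 0.05, and 1.77% of all genes were called. Pmp2 had the largest difference, 0.86 (SE 0.63), and Cdh19 one of −0.59 (SE 0.54), with adjusted p = 0.484 and 0.598. DESeq2 called none.

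At −7 weeks, sampled in batch 2 alone, Mbp was 117, 92.1, 116, 82.0, 76.7, 81.6, 70.2 and 69.0 CPM in progressor mice 1, 2, 3, 4, 6, 7, 9 and 10. At 6 weeks in that batch it was 88.7, 57.1, 78.7, 57.1 and 46.5 CPM in mice 6 to 10. The ranges overlapped, with mice 1 and 3 above all others. The difference was 0.42 (SE 0.14, adjusted p = 0.0339), 1 gene of 8 where 9.75% of genes were called higher.

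That call did not last. Restricted to mice 6 to 10, which had both times in the batch, it was 0.17 (adjusted p = 0.458), and with mouse as a block 0.28 (adjusted p = 0.281). It also passed the threshold no longer without mouse 1, 3, 7, 9 or 10 (adjusted p = 0.0637 to 0.117). Pmp2 was lower at −7 weeks than at 6 weeks by −1.18 (SE 0.59, adjusted p = 0.163) and Prx differed by 0.03.

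Progressors and nonprogressors were compared at 6 weeks, the earliest time sampled. None of the 8 genes was called by edgeR or by DESeq2, none had an unadjusted p under 0.05, and 0% of 20090 genes were called, with 999 at an unadjusted p under 0.05. The differences, progressors minus nonprogressors, ran from −0.71 (Pmp2, SE 0.53) to 0.05 (Pmp22, SE 0.10). With 10 against 11 mice the standard errors of Pmp2, Prx and Ncmap were 0.38 to 0.53, so these data do not show that the 2 groups had equal levels.

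Between strains, each mouse of batch 1 was summed to 1 library. None of the 8 genes was called, against 8.98% of 23387 genes. Mbp came nearest, with mean levels of 90.1 to 102 CPM in 5 NOR mice (mean 95.3, SD 4.41) and of 71.4 to 98.3 CPM in 9 NOD mice (mean 85.2, SD 8.95). The difference, NOD minus NOR, was −0.20 (SE 0.06, unadjusted p = 0.00655, adjusted p = 0.0626), and DESeq2 called it (adjusted p = 0.0392). It also passed without nonprogressor mouse 2 (adjusted p = 0.0237) or progressor mouse 5 (adjusted p = 0.036).

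S100b had 1.42 CPM in NOD (SD 0.330) and 1.08 in NOR (SD 0.133), a difference of 0.26 (adjusted p = 0.31). The mouse means of all 8 genes overlapped between strains, Prx for example at 14.7 (SD 3.91) and 15.3 (SD 2.05) CPM. All NOR samples were in batch 1, so the strain comparison was made in that batch alone.

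**Figure D3:**
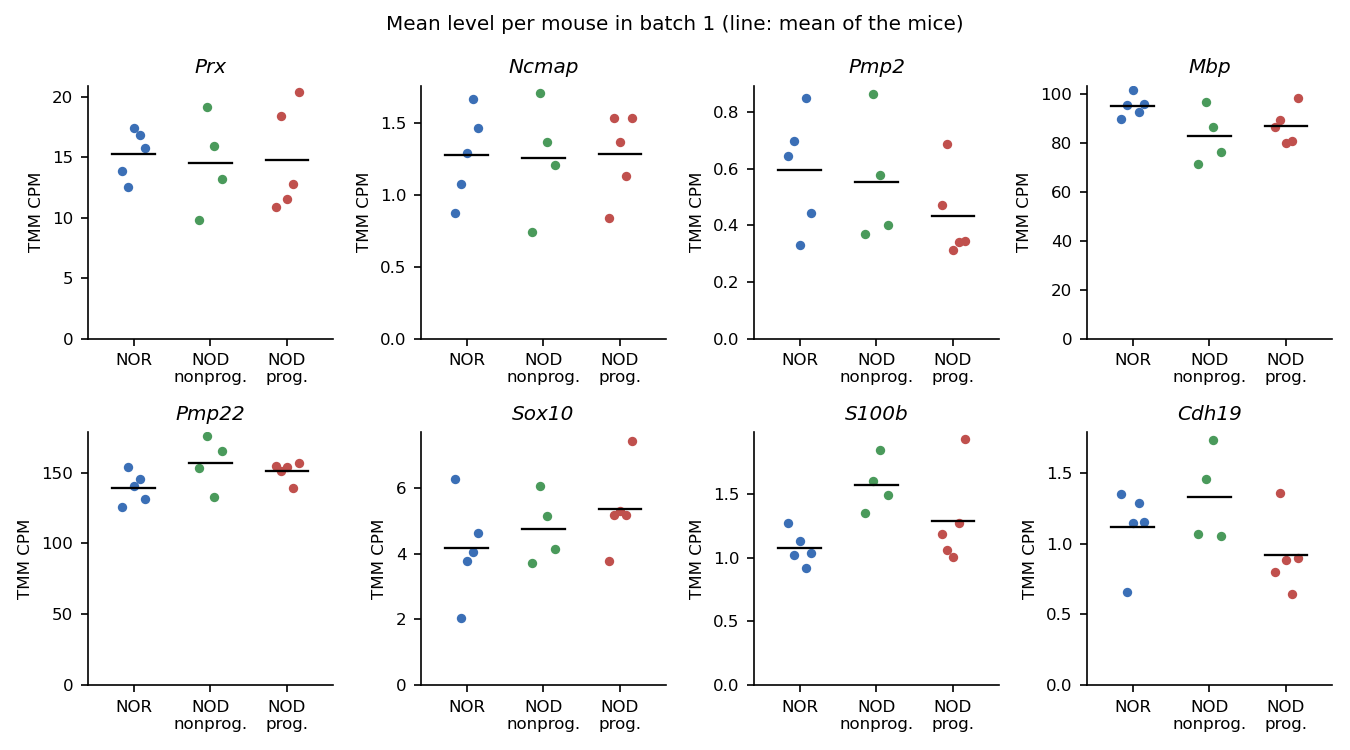
Mean level per mouse over its batch 1 samples in TMM-scaled CPM (y axis, from 0) of each gene in 5 NOR mice, 4 NOD nonprogressors and 5 NOD progressors (points), with a line at the mean of the mice. Mbp means lie at 90.1 to 102 in NOR and 71.4 to 98.3 in NOD, and the mouse means of all 8 genes overlap between strains.

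How the 8 genes varied together was described by correlating, across the 120 samples, their deviations from the mean of each group and batch on the scale of log2(CPM + 0.5). The points share library, depth and scaling, and some come from the same mouse, so no p is given. Prx and Ncmap had the highest r of the 28 pairs, 0.876, followed by Prx and Mbp (0.813) and Mbp and Ncmap (0.786). Pmp2 joined these 3 at 0.689 to 0.715.

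Sox10 and S100b had r = 0.665, at 0.777 in batch 1 and 0.403 in batch 2, where Sox10 was nearer to Ncmap (0.538) and S100b to Cdh19 (0.555). Cdh19 had r from 0.442 to 0.579 with the 6 others apart from Pmp22. Pmp22 stood outside the set, with r between −0.251 and 0.211. Without the NOR library of mouse 5 at 18 weeks, where several members had 0 counts, Prx and Ncmap had r = 0.893, and the pair of Prx and Cdh19 moved most, from 0.528 to 0.717. Sox10 was then nearer to Cdh19 (0.650) than to S100b (0.637).

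The genes outside the 8 that were most like their mean, of 15913 with a mean above 1 CPM, were Mal (0.928) and Cldn19 (0.920). Mal encodes a small membrane protein of myelin and Cldn19 the claudin of Schwann cell tight junctions. Drp2 (0.868), which encodes the dystrophin-related partner of periaxin, Kcna1 (0.855), a potassium channel, and Dhh (0.847), a hedgehog ligand that Schwann cells secrete, were also among the 10 most like it. Sbspon, Ugt8a, Cadm4 and Vat1l (0.783 to 0.812) were the lowest of the 10, of which 7 were also among the 10 without the NOR library named above.

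By single members, the 2 nearest genes included Cldn19 for Prx (0.927), Mal for Ncmap (0.896) and Mbp (0.819), and Kcna6, a potassium channel gene, for Cdh19 (0.921). Pmp2 was nearest to Cldn19 (0.797) and Mal (0.769). Sox10 was nearest to Kank4 (0.905) and Epb41l4b (0.831), and S100b to Cadm4 (0.724) and Kank4 (0.685). For Pmp22 the nearest were Peak1 (0.808) and Sgpp1 (0.795), a kinase-like scaffold protein and a sphingosine phosphatase.

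**Figure D4:**
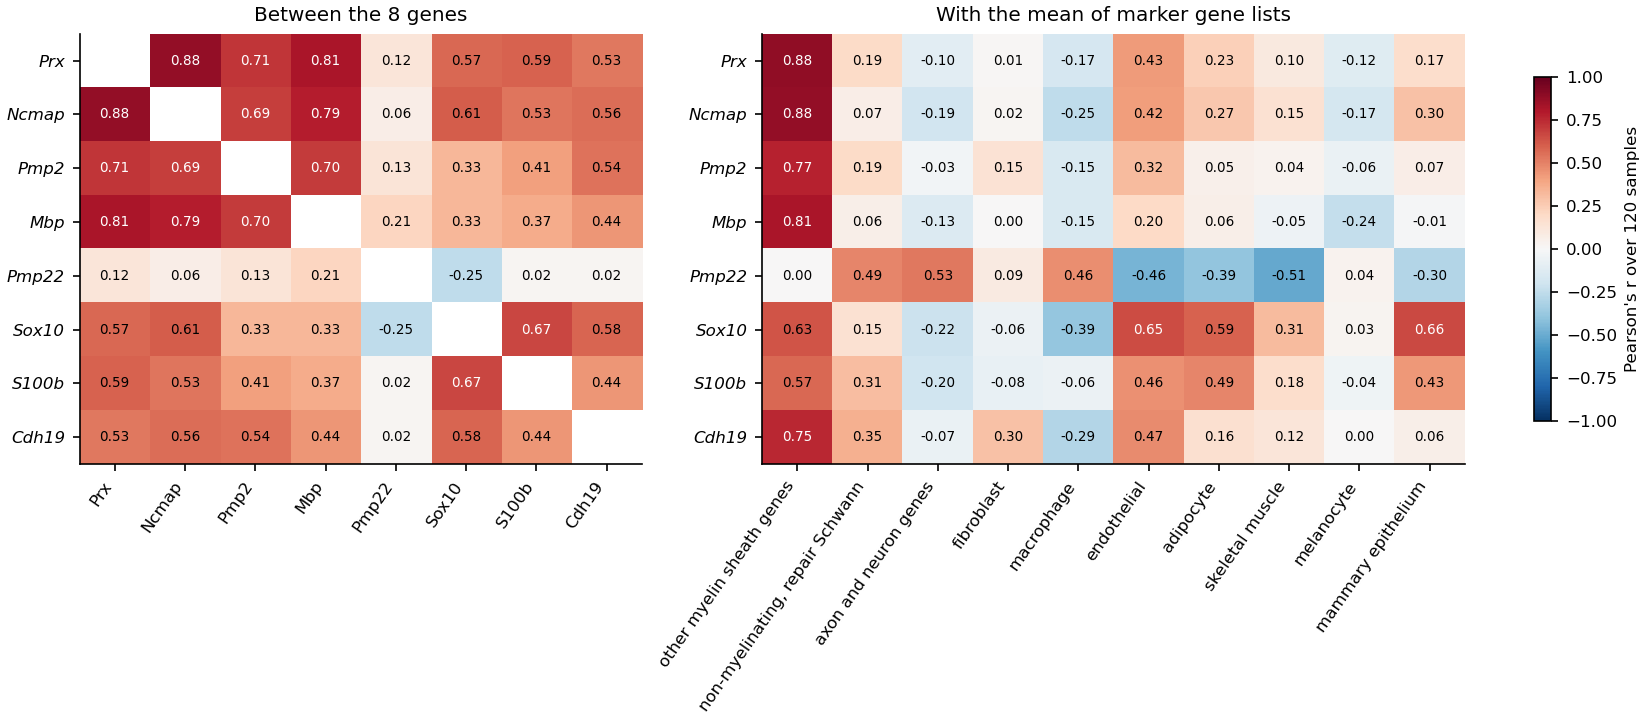
Pearson's r between the 8 genes (left panel) and of each gene with the mean of marker gene lists (right panel), over deviations from group and batch means in 120 samples, coloured from −1 (blue) to 1 (red). Prx, Ncmap, Pmp2 and Mbp have r of 0.689 to 0.876 with each other and 0.771 to 0.884 with the other myelin genes, and Pmp22 has r of 0.001 with the latter.

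Against the mean of 9 measured genes of another list, other myelin sheath genes, Prx had r = 0.884, Ncmap 0.881, Mbp 0.813, Pmp2 0.771, Cdh19 0.750, Sox10 0.626 and S100b 0.571, while Pmp22 had 0.001. Pmp22 went instead with axon and neuron genes (0.528), nonmyelinating and repair Schwann genes (0.490) and macrophage genes (0.463). The first 2 of these values rest on 3 of 10 and 5 of 12 listed genes, those with a mean above 1 CPM. Pmp22 went against skeletal muscle (−0.509) and endothelial genes (−0.461). Its level was the least like that of myelin among the 8.

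Sox10 was as near to lists of other cells as to myelin. It had r = 0.662 with genes of mammary epithelium, a list added after the data had been seen, 0.651 with endothelial, 0.593 with adipocyte and −0.385 with macrophage genes. With melanocyte genes, another lineage that uses Sox10, r was 0.026. Only 2 of the 7 listed melanocyte genes had a mean above 1 CPM and entered that value. In nonprogressors of batch 2, where Sox10 was higher at 14 weeks, the summed level of the mammary list was 1.04 to 2.52 CPM at 6 weeks and 2.92 to 186 CPM at 14 weeks. Of its milk protein genes, chosen after their values were seen, Wap had a median of 0 CPM and reached at most 0.132 in any of the 120 samples. Csn2 and Csn3 reached 26.8 and 35.7 CPM. The part of such cells in the Sox10 values was not tested.

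**Figure D5:**
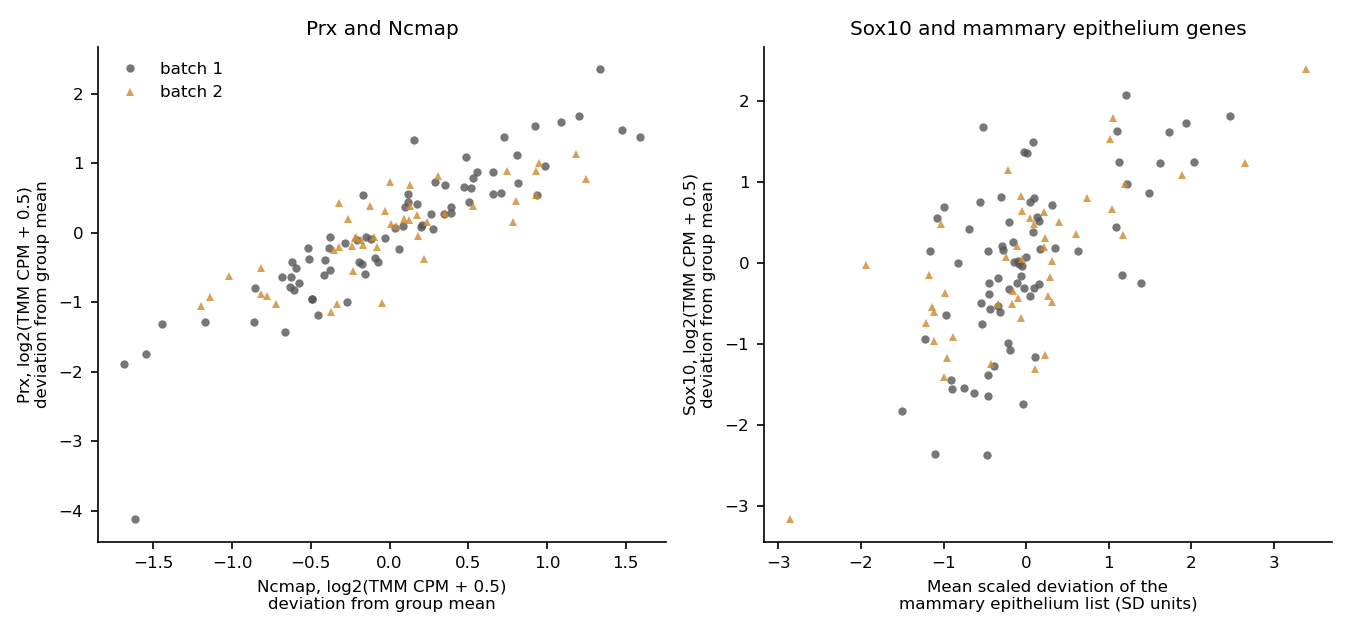
Left, deviation of Prx (y axis) against that of Ncmap (x axis) from the mean of their group and batch, both on the log2(CPM + 0.5) scale, for 120 samples. Right, deviation of Sox10 (y axis) against the mean scaled deviation of the mammary epithelium list (x axis, SD units). Circles are batch 1 and triangles batch 2. Prx and Ncmap have r = 0.876 and Sox10 and the mammary list r = 0.662, and the lowest point for Prx in the left panel is the NOR library of mouse 5 at 18 weeks.

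The other genes of the Schwann lineage were followed through lists. Of 12 other myelin sheath genes, 8 of 11 tested were lower at 14 than at 6 weeks in batch 2 nonprogressors (median log2 difference −1.96), and 9 of 12 were lower at onset than at 6 weeks in progressors (median −1.52). Over all genes 17.3% and 19.9% were called lower in these comparisons. Within a single batch the onset count was 0 of 11 in batch 1, where 8.25% of genes were called lower, and 2 of 11 in batch 2, where 17.2% were, a share near the background. At 14 weeks in batch 2 nonprogressors Ugt8a fell by 2.28 (adjusted p = 0.0197) and Fa2h by 2.41 (adjusted p = 0.0049), which make the glycolipids of myelin. In the contrast of 10 to 22 with 6 weeks 3 of 12 were lower in nonprogressors of batch 1, where 6.61% of genes were called lower. None of 12 was called in NOR, where only 0.0357% of genes were called at all, so these counts do not compare the strains. The median log2 differences of the list were −1.675 in nonprogressors and −0.905 in NOR. In none of these contrasts was a gene of the list called higher.

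Nonmyelinating and repair Schwann genes were lower in part, 5 of 10 tested at 14 weeks in batch 2 nonprogressors and 8 of 11 at onset, where 1 was higher. Over all genes 17.3% and 19.9% were called lower. Within batch 1 the onset count was 2 of 11 lower, against 8.25% of genes. Within batch 2 it was 7 of 11 lower, against 17.2%, and 2 higher. At 14 weeks in batch 2 nonprogressors Scn7a, a sodium channel gene of nonmyelinating Schwann cells, fell by 0.61 (adjusted p = 0.026). Ncam1 was at −0.33 in the same comparison (adjusted p = 0.353). Among 8 Schwann transcription factors, none of them Sox10, 2 of 6 tested were higher and 1 lower at 14 weeks, where 34.1% of all genes were called in either direction. Egr2, which drives myelin genes in Schwann cells and is also made by macrophages, was higher by 0.65 (adjusted p = 0.00359), opposite to the myelin genes. Tfap2a was the one factor called in the NOR age slope, at −0.65 per 4 weeks (adjusted p = 0.022). Of 11 genes of Schwann signalling and adhesion, 1 was higher and 3 were lower at 14 weeks, a share near the 34.1% of all genes called in either direction. Erbb3, the neuregulin coreceptor, was the higher one (1.14, adjusted p = 0.0392).

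Markers of other cells moved with time as well, and their part in the members' changes was not tested. The summed level of 8 fibroblast genes had medians of 42900 CPM at 6 weeks and 31060 later in NOR, and of 58260 and 20170 in progressors of batch 2. All 8 were called lower at 14 weeks in batch 2 nonprogressors and at onset in progressors of both batches together, where 17.3% and 19.9% of all genes were. Within a single batch the onset count was 3 of 8 in batch 1 and 8 of 8 in batch 2, where 8.25% and 17.2% of genes were called lower. Fewer cells of a type and less RNA per cell cannot be told apart in such bulk samples. Within groups r between the fibroblast list and Prx, Ncmap, Pmp2 and Mbp was between 0 and 0.147, and with Cdh19 it was 0.296.

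The medians of skeletal muscle and adipocyte genes differed in opposite directions in the 2 batches of nonprogressors, though none of the 8 genes of either list passed in batch 1. The muscle list had medians of 4336 CPM at 6 weeks and 138 later in nonprogressors of batch 1, and of 12.6 and 3175 CPM in those of batch 2. The adipocyte list had medians of 464 and 106 CPM in the former and of 56.0 and 894 CPM in the latter, and in batch 2 all 8 genes of each list were called higher at 14 weeks. Pmp2, Prx, Cdh19, Ncmap and S100b had lower medians after 6 weeks in both batches of nonprogressors. The medians of Sox10, Mbp and Pmp22 differed in opposite directions between the batches. The part of muscle and adipocytes in these values was not tested.

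Of the remaining lists, which are to be read against 34.1% of all genes called at 14 weeks and 39.6% at onset in either direction, endothelial genes had no call at 14 weeks in batch 2 nonprogressors and 5 lower and 1 higher of 8 at onset. Macrophage genes had 3 lower of 8 at 14 weeks and 2 higher and 1 lower at onset, and T cell genes 3 higher of 8 at both. Axon and neuron genes had 1 higher and 1 lower of 5 tested at 14 weeks. Melanocyte genes had none of 2 at 14 weeks and 3 higher of 3 at onset. Epidermis genes had 3 higher and 1 lower of 5 at 14 weeks and 1 higher of 7 at onset, and mammary genes 2 higher of 2 and 3 higher of 7. Within batch 1, where 18.1% of genes were called at onset, no endothelial, macrophage, melanocyte or epidermis gene was. There 1 T cell gene was lower and 1 mammary gene higher. Within batch 2, where 34.3% were, 6 endothelial genes were lower and 1 higher, and 3 of 3 melanocyte genes were higher. Melanocyte sums in batch 2 progressors had medians of 0.987 CPM at 6 weeks and 1.01 later (0.5575 to 189.5).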

How the data were processed

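Total RNA of 120 scaffold explants was sequenced after ribosomal depletion, per the labels. The authors deposited 2 tables of estimated counts per gene, 1 a batch. The submitters' processing notes name cutadapt, FastQC, STAR, RSEM, MultiQC and GRCm38, and versions are not given in the sources used here. The estimated counts were rounded to whole numbers, and 0 columns of per-sample values were left unused. Library totals (medians 30186412.5 and 36440355.5 by batch) set the counting error of low genes. Groups and mouse numbers came from the labels, and nothing else placed a sample in a group.

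Tests used edgeR 4.0.16 (filterByExpr, TMM, quasi-likelihood fit) in R 4.3.3, with Benjamini-Hochberg adjustment over all genes tested and a threshold of 0.05. Strains were compared on counts summed per mouse within batch 1, age as a slope per 4 weeks within batch 1, and progressors with a batch term where both batches entered. DESeq2 1.42.0, RLE scaling, no filter on low counts, a mouse block, single batches and leaving out each mouse were the alternatives. The contrasts of the mean of later times with 6 weeks, and the fits without the NOR library of mouse 5 at 18 weeks, were chosen after the data had been seen. The 8 members and all gene lists were chosen with earlier results of these data known. The lists cover other myelin sheath genes, nonmyelinating and repair Schwann genes, Schwann transcription factors, Schwann signalling and adhesion, axon and neuron genes, melanocytes, fibroblasts, macrophages, endothelium, adipocytes, skeletal muscle, T cells, epidermis and mammary epithelium.

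Genes named in the text are the 8 members, up to 4 genes of each list with the smallest p in the NOR age slope, the 10 genes most like the mean of the members and the 2 nearest to each member. Some genes that this rule names are not reported here. Genes outside it are said to be chosen after their values were seen. Likeness is Pearson's r of deviations from group and batch means of log2(CPM + 0.5). The mean of a gene list used only its genes with a mean above 1 CPM, members left out.

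Same-numbered samples within a strain and class were taken as the same mouse, so mouse served as the pairing. The nonprogressor samples dated by days after implantation were left out of this pairing. Over 2000 genes, deviations from group means had a mean r within and between mice of 0.013 and −0.003 in NOR, 0.01 and 0.002 in nonprogressors, and −0.012 and 0.004 in progressors, so samples of a mouse hardly deviated together. No 2 of 239 replicate pairs had identical counts. The tests were tried on simulated counts, in which 200 genes were changed by 1 log2 unit. They were called in 78% of cases for the strain comparison (23198 genes) and 69% for the NOR age slope (18495 genes). The share was 67.5% for onset against 6 weeks in progressors (21026 genes) and 82.5% for progressors against nonprogressors (19835 genes). Samples were drawn independently, without mouse effects, and the changed genes were of all levels. The shares therefore do not apply to low genes such as Pmp2.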

Additional observations from a re-analysis of the deposited data

Results flagged for a closer look

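Of 184 sets of 4 to 10 samples of a gene, group and batch, 8 held a sample far from the others by Dixon's test, and chance flags about 1 in 20 sets. Ncmap was 2.838 CPM in nonprogressor mouse 2 at 14 weeks in batch 1, where the other mice had 0.3046 to 0.4228 CPM. It was 1.472 CPM in progressor mouse 6 at onset in batch 2, with 0.3005 to 0.4532 CPM in the others. Prx was 2.585 CPM in progressor mouse 6 at −1 week, against 6.014 to 7.154 CPM. Pmp22 was 110.4 CPM in progressor mouse 8 at −5 weeks, against 212 to 259.6 CPM.

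S100b gave the other 4. It was 0.6192 CPM in NOR mouse 4 at 6 weeks, against 1.735 to 1.842 CPM, and 1.454 CPM in NOR mouse 5 at 14 weeks, against 0.9631 to 1.087 CPM. In NOR mouse 2 at 22 weeks it was 0.4856 CPM, against 0.9573 to 1.196 CPM. In nonprogressor mouse 3 at 18 weeks it was 3.683 CPM, against 1.079 to 1.255 CPM.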

How the results depend on the processing

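Counts are of the 8 genes called, and values are log2 differences or slopes. Shares of all genes called in either direction are in brackets. DESeq2 called 1 gene between strains (12.9%). The mean of 10 to 22 weeks against 6 weeks called 2 in nonprogressors (13.8%), and 3 with mouse as a replicate block (12.7%). Onset against 6 weeks called 0 within batch 1 (18.1%). The −7 week count was 0 with no filter (8.6%), with a replicate block (8.6%) and in mice 6 to 10 (13.9%). Leaving out each mouse gave 0 to 1 calls for strain (6.04 to 8.99%) and −7 weeks (11.3 to 19.3%). It gave 2 to 4 for onset against 6 weeks (33.4 to 40.7%), 4 to 5 for 14 against 6 weeks in batch 2 (23.6 to 41.5%), and 0 to 0 elsewhere. The block moved no other count by over 1.5 times. No paired analysis was possible for strain or for progressors against nonprogressors because each mouse is in 1 group.

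Signs turned in the following, none of them called in either fit, and the cause was not tested. For strain, Prx was 0.129 at 6 weeks alone, Pmp2 0.059 in nonprogressors and Cdh19 −0.186 in progressors. Without the 6-week samples the NOR slopes were 0.335 (Pmp2) and 0.004 (Prx), and the nonprogressor slopes 0.33 (Sox10), 0.193 (S100b), 0.441 (Ncmap), 0.672 (Cdh19) and 0.406 (Prx). Pmp22 was 0.115 in the mean of later ages in nonprogressors, and 0.124 with the block. In the later-minus-6-week difference between strains Sox10 was −0.636, Mbp −0.122, Ncmap −0.062, Cdh19 −1.036 and Prx −0.221. Onset against 6 weeks in batch 2 gave Mbp 0.323, and the mean of −5 weeks to onset S100b 0.099 and Mbp 0.146. Onset against −5 weeks gave Mbp −0.112 and Cdh19 0.253 in batch 1, and Sox10 −0.22 and Ncmap −0.084 in batch 2. In mice 6 to 10 Prx was −0.366 at −7 weeks. Progressors against nonprogressors gave Mbp 0.112, Ncmap 0.094 and Prx 0.24 in batch 1, Pmp22 −0.058 in batch 2, and Pmp22 −0.057 and Prx 0.11 without a batch term.

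Without single mice, strain values ran from −0.028 to 0.319 (Sox10), −0.251 to 0.034 (Ncmap) and −0.094 to 0.213 (Cdh19), and the nonprogressor S100b slope from −0.073 to 0.029. The strain-by-age values ran from −0.029 to 0.061 (Pmp22), −0.008 to 0.241 (Sox10), −0.024 to 0.068 (Mbp), −0.095 to 0.13 (Cdh19), −0.199 to 0.031 (Pmp2) and −0.023 to 0.18 (Prx). At −7 weeks the ranges were −0.246 to 0.97 (Sox10), −0.109 to 0.188 (S100b), −0.126 to 1.084 (Ncmap) and −0.212 to 0.351 (Prx). Onset values ran from −0.244 to 0.001 (Mbp, against 6 weeks) and −0.284 to 0.581 (Sox10, against −5 weeks).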

Other observations

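The 6 nonprogressor scaffolds dated from implantation rather than by age entered no test of age. Prx was 8.58 and 10.0 CPM at 31 days, 5.53 and 9.52 at 38 days, and 14.0 and 15.5 at 108 days. Pmp22 was 102 and 118 CPM at 31 days, 68.0 and 88.5 at 38 days, and 148 and 171 at 108 days. Pmp2 was 0.271 and 0.274 CPM at 31 days, 0.0704 and 0.0847 at 38 days, and 0.278 and 0.294 at 108 days, in each case below the lowest 6-week nonprogressor of batch 1 (0.430 CPM).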
